A study of Mus musculus with 12 samples.

Results

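The insulin-like growth factor (IGF) genes *Igf1*, *Igf2*, *Igf1r*, *Igf2r*, *Igfbp2*, *Igfbp4*, *Igfbp5* and *Igfbp7* were followed in sorted brain cells of old mice. These 8 genes, which code for ligands, receptors and binding proteins, were picked by symbol from the 47643 genes of the count table, of which 18571 had at least 1 count. All 8 were among the 12270 genes tested, which needed at least 10 counts over the 10 samples.

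Viable brain cells of 5 old male p16-3MR mice on a C57BL/6 background were sorted after cold protease dissociation and myelin removal. In these mice the p16 promoter drives a reporter transgene of 3 joined parts, a luciferase, a shortened thymidine kinase of HSV-1 and the red fluorescent protein (RFP) used for sorting. Fluorescence thus reports activity of the transgene and not p16 protein. Each mouse gave a sample of low fluorescence (RFPneg, called RFPLow in the study) and a sample of high fluorescence (RFPpos, called RFPHigh). The populations were compared within mice, with samples of the same number taken as the same mouse. Mouse 1 was 113 weeks old, mouse 2 was 115 weeks old and mice 3 to 5 were 116 weeks old, and no young group enters the comparison.

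The libraries count tags near the 3′ end of transcripts. The total count over genes was 177287, 196103, 415834, 248471 and 299680 in the RFPneg samples of mice 1 to 5 and 222560, 289713, 223052, 250482 and 242798 in the RFPpos samples. A level is expressed in CPM (counts per 1e+06 counts on genes of the same sample) and summarised as mean ± SD over the 5 mice. At this depth a single count equals between 2.40 and 5.64 CPM, so that *Igf2r* and *Igfbp2* rest on few counts.

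IGF1 and IGF2 are secreted peptides that signal through the tyrosine kinase receptor IGF1R to the PI3K-AKT and RAS-ERK branches. IGF2R, a mannose 6-phosphate receptor, carries IGF2 and tagged enzymes to lysosomes and does not signal as a kinase. The binding proteins hold IGFs in the extracellular fluid and are cut by proteases, whereas IGFBP7 binds IGFs weakly and is a secreted protein of vessel walls. In the brain, IGF1 is made by glia and neurons, and IGF2 by choroid plexus and meninges.

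Of the 8 genes, 2 passed the threshold with higher and 4 with lower counts in the RFPpos samples (edgeR quasi-likelihood test with mouse as a block, adjusted p under 0.05). Among all genes tested, 4.27% were called higher and 7.49% lower, 11.8% in either direction. The higher call of *Igfbp4* did not hold in most other fits, as given with its values. The median log2 fold change, RFPpos minus RFPneg, was −1.58 for the 8 genes and −0.15 for all genes tested. In bulk samples, fewer cells of a type and less RNA per cell cannot be told apart.

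**Figure D1:**
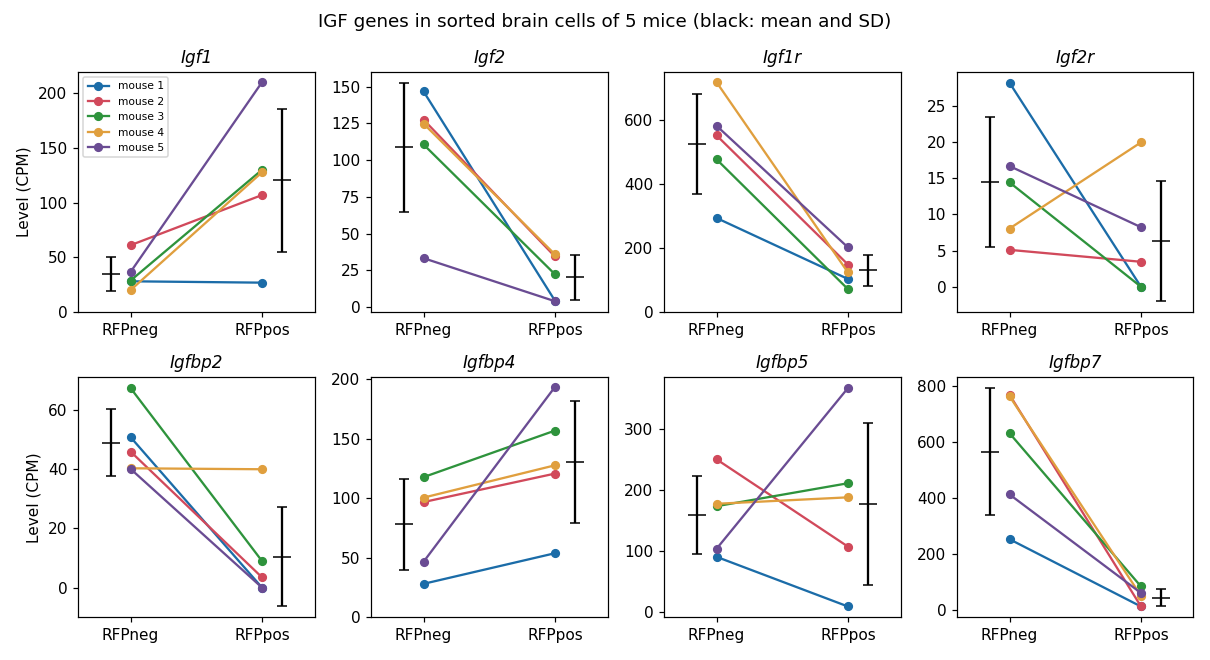
Level of each IGF gene in CPM (vertical axes, which differ between panels) in the RFPneg and RFPpos sample of each mouse, joined by a line, with mean and SD in black (n = 5). *Igf1r*, *Igf2* and *Igfbp7* were lower in the RFPpos sample of all 5 mice, while *Igf1* was higher in 4 of 5.

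*Igf1* (chromosome 10, 87858265 to 87937042, plus strand of GRCm38; ENSMUSG00000020053) was the ligand that rose. Its level in RFPneg samples of mice 1 to 5 was 28.2, 61.2, 28.9, 20.1 and 36.7 CPM, and in RFPpos samples 27.0, 107, 130.0, 128 and 210.1 CPM. RFPpos samples of mice 2 to 5 lay above every RFPneg sample, while that of mouse 1 lay among them with 6 counts. The mean was 35.0 CPM ± 15.8 (SD, n = 5) in RFPneg and 120.4 CPM ± 65.4 (SD, n = 5) in RFPpos samples, and without mouse 1 it was 36.7 CPM ± 17.7 and 143.7 CPM ± 45.4 (SD, n = 4). With all 5 mice the log2 fold change was 1.83 (SE 0.36, edgeR adjusted p = 1.06e-05). With library sizes taken from 20 microglia genes (microglia gene scaling) it was 0.64 and no longer called (edgeR adjusted p = 0.163). This scaling moved the median over all genes from −0.15 to −1.31 and called 0.0978% of them higher and 48.1% lower, so its values are to be read beside that shift.

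*Igf2* (chromosome 7, 142650766 to 142666816, minus strand; ENSMUSG00000048583) moved the other way. RFPneg samples of mice 1 to 5 held 147, 127, 110.6, 125 and 33.4 CPM, and RFPpos samples 4.49, 34.5, 22.4, 35.9 and 4.12 CPM. The populations overlapped only through mouse 5, whose RFPneg sample was below the RFPpos samples of mice 2 and 4. Every mouse had the lower level in its RFPpos sample. This gave a log2 fold change of −2.35 (SE 0.42, edgeR adjusted p = 5.33e-07), and −3.61 with microglia gene scaling. The gene overlaps *Gm49394* on its own strand, which has no row in the count table. How reads of the shared stretch were counted is not given in the sources used here.

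The ligands together had a mean of 144 CPM ± 45.9 in RFPneg and 141 CPM ± 67.1 in RFPpos samples (SD, n = 5), but mice differed in direction. Their sum was 175, 189, 139, 145 and 70.1 CPM in RFPneg samples of mice 1 to 5 and 31.5, 142, 152, 164 and 214 CPM in RFPpos samples. *Igf1* made up 27.1% ± 15.8 of the *Igf1* and *Igf2* counts in RFPneg and 84.5% ± 8.76 in RFPpos samples (SD, n = 5). The share ranged from 13.9% to 52.4% in RFPneg and from 75.6% to 98.1% in RFPpos samples. It was calculated after the levels had been seen and has no test. In the RFPpos sample of mouse 1 it rests on 6 of 7 counts (85.7%, Wilson 95% interval 48.7 to 97.4).

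*Igf1r*, the signalling receptor (chromosome 7, 67952827 to 68233668, plus strand; ENSMUSG00000005533), fell. RFPneg samples of mice 1 to 5 held 293, 551, 476, 716 and 581 CPM, and RFPpos samples 103, 148, 71.7, 124 and 202 CPM. The populations did not overlap, and the RFPneg sample of mouse 1 was the lowest of its population. Its log2 fold change was −1.94 (SE 0.23, edgeR adjusted p = 2.23e-15), a 3.85-fold lower level. With microglia gene scaling it was −3.14.

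*Igf2r* (chromosome 17, 12682406 to 12769664, minus strand; ENSMUSG00000023830) had 27 counts in all, from 5.10 to 28.2 CPM in RFPneg and from 0 to 19.96 CPM in RFPpos samples. The RFPpos samples of mice 1 and 3 had no count, which allows up to 13.5 and 13.4 CPM. The log2 fold change of −1.21 had an interval from −3.34 to 0.92 (edgeR adjusted p = 0.575), which includes 0. It was −2.30 with microglia gene scaling and called lower (edgeR adjusted p = 0.0451), as were 48.1% of all genes. The antisense gene *Airn* overlaps it, with 3 counts in RFPneg and 1 in RFPpos samples.

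*Igfbp7* (chromosome 5, 77349240 to 77408041, minus strand; ENSMUSG00000036256) had the lowest log2 fold change of the 8 genes. RFPneg samples of mice 1 to 5 held 254, 770.0, 632, 765 and 414 CPM, and RFPpos samples 13.5, 13.8, 85.2, 51.9 and 61.8 CPM. The lowest RFPneg sample was above the highest RFPpos sample. The log2 fold change was −3.63 (SE 0.27, edgeR adjusted p = 4.78e-40), a 12.4-fold lower level. With microglia gene scaling it was −4.84. *Polr2b* overlaps the gene on the opposite strand and had 36 counts in RFPneg and 46 in RFPpos samples. Whether the counting used strand is not given in the sources used here, so reads of overlapping genes are uncertain.

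*Igfbp2* (chromosome 1, 72824503 to 72852474, plus strand; ENSMUSG00000039323) fell as well. Its RFPneg samples held 50.8, 45.9, 67.3, 40.2 and 40.0 CPM for mice 1 to 5, and its RFPpos samples 0, 3.45, 8.97, 39.9 and 0 CPM. The populations did not overlap, but only narrowly, since the RFPpos sample of mouse 4 reached nearly the lowest RFPneg level. The samples at 0 allow up to 13.5 CPM in mouse 1 and 12.4 CPM in mouse 5. The log2 fold change was −2.44 (SE 0.63, edgeR adjusted p = 0.00113), from 68 counts in RFPneg and 13 in RFPpos samples. Mouse 4 gave 10 of these 13 counts, and without it the log2 fold change was −3.82 (edgeR adjusted p = 0.000134). It was −3.11 with DESeq2 and −3.63 with microglia gene scaling.

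*Igfbp4* (chromosome 11, 99041244 to 99054392, plus strand; ENSMUSG00000017493) was higher in the RFPpos sample of all 5 mice, yet its call rests on the settings. RFPneg samples of mice 1 to 5 held 28.2, 96.9, 118, 101 and 46.7 CPM, and RFPpos samples 53.9, 121, 157, 128 and 194 CPM. The populations overlapped. The log2 fold change was 0.83 (SE 0.30) with an edgeR adjusted p = 0.0478, just past the threshold. Of 20 other fits, 4 called it higher. The edgeR adjusted p was 0.0776 with the legacy option of the quasi-likelihood fit off, which gives the genes' own spread more weight beside the common trend (prior degrees of freedom 20.3 in place of infinite), and 0.427 without mouse 5. With microglia gene scaling the log2 fold change was −0.37.

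*Igfbp5* (chromosome 1, 72857932 to 72874884, minus strand; ENSMUSG00000026185) varied more between mice than between populations. RFPneg samples of mice 1 to 5 held 90.2, 249.9, 173, 177 and 103 CPM, and RFPpos samples 8.99, 107, 211, 188 and 367 CPM. The RFPpos samples thus held both the lowest and the highest level. The gene was higher in the RFPpos sample of 3 mice and lower in 2. The log2 fold change was 0.02 with an interval from −0.49 to 0.53 (edgeR adjusted p = 0.98). In the fit with legacy off it was 0.09 with an interval from −0.63 to 0.80 (edgeR adjusted p = 0.924). With microglia gene scaling it was −1.22 and called lower (edgeR adjusted p = 8.56e-05), near the median of −1.31 over all genes. *Igfbp5* and *Igfbp2* lie tail to tail, 5457 bases apart with no gene between them.

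The 4 binding protein genes together had 853 CPM ± 322 in RFPneg and 362 CPM ± 209 in RFPpos samples (SD, n = 5). Their sum was 423, 1163, 991, 1083 and 604 CPM in RFPneg samples of mice 1 to 5 and 76.4, 245, 462, 407 and 622 CPM in RFPpos samples, so that it did not fall in mouse 5. *Igfbp7* made up 65.8% ± 4.13 of their counts in RFPneg and 12.9% ± 5.36 in RFPpos samples (SD, n = 5), a share that was calculated after the levels had been seen and has no test. The share of *Igfbp4* was 8.78% ± 1.98 in RFPneg and 43.3% ± 17.0 in RFPpos samples, and that of *Igfbp5* 18.8% ± 2.46 and 41.2% ± 17.5, although the level of *Igfbp5* was not called different. A share depends on the levels of the other genes in the sum. In the RFPpos sample of mouse 1 the share of *Igfbp4* rests on 12 of 17 counts (70.6%, Wilson 95% interval 46.9 to 86.7). The share of *Igfbp5* fell in mouse 1, from 21.3% (16 of 75 counts) in RFPneg to 11.8% (2 of 17 counts) in RFPpos.

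**Figure D2:**
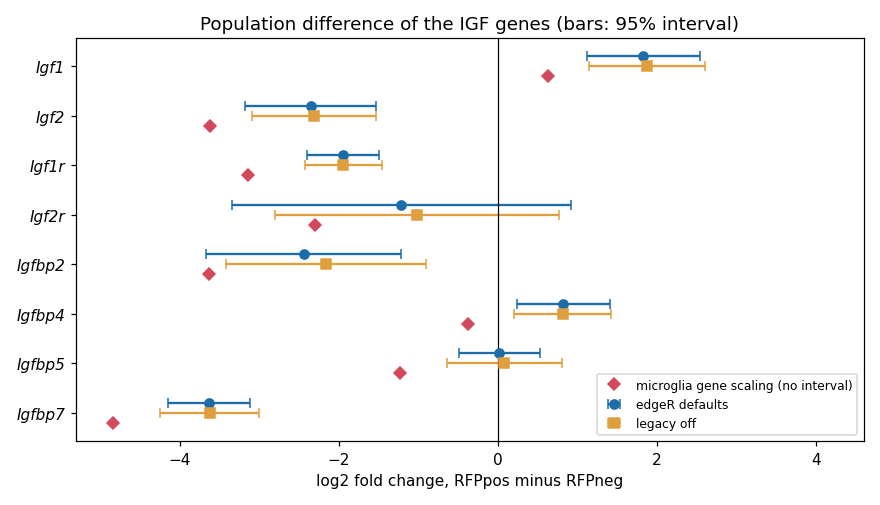
Log2 fold change, RFPpos minus RFPneg (horizontal axis), of the 8 IGF genes with the default edgeR fit, with legacy off, and with microglia gene scaling. Bars are 95% intervals. *Igf1r*, *Igf2*, *Igfbp2* and *Igfbp7* were below 0 under all 3, while *Igfbp4* was at 0.83 and at −0.37 with microglia gene scaling.

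The promoter windows of 5 genes are shown because *Igf1r* and *Igfbp7* fell, *Igf1* rose, and the neighbours *Igfbp2* and *Igfbp5* differed in their calls. All 8 genes matched RefSeq promoter windows of 300 bases (GRCm38.p6), 12 windows in all. Capitals mark matches, on either strand, to the TATA box (TATAAA), the CCAAT box (CCAAT), the GC box (GGGCGG) or a PU.1-type ETS motif (GAGGAAGT). Of 32851 windows, 13.6% held the TATA box, 37.4% the CCAAT box, 35.7% the GC box and 3.20% the ETS motif. The windows are chr10:87860861-87861160 (plus strand) for *Igf1*, chr7:67952007-67952306 (plus) for *Igf1r*, chr5:77407996-77408295 (minus) for *Igfbp7*, chr1:72824230-72824529 (plus) for *Igfbp2* and chr1:72874816-72875115 (minus) for *Igfbp5*. The gene coordinates above come from another annotation, GENCODE. The windows of *Igfbp7*, *Igfbp2* and *Igfbp5* hold the gene start given there, while that of *Igf1r* ends before it and that of *Igf1* lies inside the gene.
Igf1: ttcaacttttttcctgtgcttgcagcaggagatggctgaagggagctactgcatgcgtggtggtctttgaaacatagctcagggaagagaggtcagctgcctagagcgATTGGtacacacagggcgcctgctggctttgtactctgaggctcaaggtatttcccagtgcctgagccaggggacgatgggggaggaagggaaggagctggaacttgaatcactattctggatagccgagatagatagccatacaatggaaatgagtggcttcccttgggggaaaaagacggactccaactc
Igf1r: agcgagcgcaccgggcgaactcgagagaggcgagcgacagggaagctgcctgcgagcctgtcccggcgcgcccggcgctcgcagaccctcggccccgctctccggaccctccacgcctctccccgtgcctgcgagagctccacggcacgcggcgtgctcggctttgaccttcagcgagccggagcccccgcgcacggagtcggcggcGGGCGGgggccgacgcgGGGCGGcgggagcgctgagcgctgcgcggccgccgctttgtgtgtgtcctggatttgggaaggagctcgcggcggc
Igfbp7: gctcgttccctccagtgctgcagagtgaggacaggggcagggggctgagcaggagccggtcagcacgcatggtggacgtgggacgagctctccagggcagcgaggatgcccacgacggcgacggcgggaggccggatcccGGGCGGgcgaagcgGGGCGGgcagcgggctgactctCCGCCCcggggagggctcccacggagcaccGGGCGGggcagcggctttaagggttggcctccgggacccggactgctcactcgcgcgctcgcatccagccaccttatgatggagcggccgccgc
Igfbp2: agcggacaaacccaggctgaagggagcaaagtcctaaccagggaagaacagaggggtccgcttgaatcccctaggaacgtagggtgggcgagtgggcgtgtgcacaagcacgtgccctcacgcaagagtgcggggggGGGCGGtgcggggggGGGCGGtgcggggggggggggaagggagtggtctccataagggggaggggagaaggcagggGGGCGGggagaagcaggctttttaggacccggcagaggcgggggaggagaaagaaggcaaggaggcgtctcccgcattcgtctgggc
Igfbp5: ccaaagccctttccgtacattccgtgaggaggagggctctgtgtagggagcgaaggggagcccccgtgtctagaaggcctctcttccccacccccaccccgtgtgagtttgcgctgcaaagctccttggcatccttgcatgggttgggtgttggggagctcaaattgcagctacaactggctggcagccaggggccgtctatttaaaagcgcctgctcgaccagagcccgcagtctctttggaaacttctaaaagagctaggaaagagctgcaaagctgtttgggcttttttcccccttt

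The *Igf1* window held 1 CCAAT box match and no GC box. The *Igfbp7* window held 4 GC box matches, the printed window of *Igfbp2* 3 and that of *Igf1r* 2, and the *Igfbp5* window held no match to these motifs. GC content was 52.3% for *Igf1*, 76% for *Igf1r*, 73.3% for *Igfbp7*, 67% for *Igfbp2* and 56.3% for *Igfbp5*, beside a median of 52.7% over all windows. *Igfbp2* has another RefSeq window (chr1:72825137-72825436), with no GC box match and a GC content of 57.3%. Among the other windows not printed, that of *Igf2r*, which was not called, held 3 GC box matches. Those of *Igf2*, which was called lower, held from 0 to 2, and 1 of them held a CCAAT box match. The *Igfbp4* window held 1 TATA box match and no GC box. None of the 12 windows held the ETS motif, which the myeloid factor PU.1 can bind, which says only that these letters are not there.

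Marker genes of several cell types moved with the populations. All 20 microglia genes were called higher, and their summed level was 18508 CPM ± 3748 in RFPneg and 39788 CPM ± 3784 in RFPpos samples (SD, n = 5), with *Ctss* the most abundant. All 12 endothelial genes were called lower, from 5750 CPM ± 2493 to 254 CPM ± 103, with *Flt1* the most abundant and none at 0. *Igf1r* and *Igfbp7* were lower in the population with fewer endothelial counts, and the RFPneg sample of mouse 1 was the lowest RFPneg sample in all 3 measures. The endothelial sum was 1918, 6196, 6774, 8681 and 5179 CPM in RFPneg samples of mice 1 to 5 and 121, 207, 269, 403 and 272 CPM in RFPpos samples. For each 100 endothelial counts there were from 7.99 to 13.2 *Igfbp7* counts in RFPneg and from 6.67 to 31.7 in RFPpos samples, which overlap. For *Igf1r* there were from 7.03 to 15.3 in RFPneg and from 26.7 to 85.2 in RFPpos samples, which do not overlap. These ratios were chosen after the levels had been seen, and the part of endothelial RNA in the results was not tested.

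Another list is named here after olfactory ensheathing glia, and the study assigns its genes *Npy* and *Fabp7* to glial restricted progenitors. Of the 10 genes 8 were tested, 4 were called higher (*Npy*, *Frzb*, *Prss56*, *Mybpc1*) and 1 lower (*Sox10*), *Apod* was the most abundant, and *Plp2* and *Ngfr* were at 0 in RFPpos samples. Their sum was 1145, 1754, 1857, 962 and 1605 CPM in RFPneg samples of mice 1 to 5 and 189, 2085, 2649.6, 2172 and 2916 CPM in RFPpos samples. The RFPpos sample of mouse 1 was the lowest RFPpos sample in *Igf1*, *Igfbp4* and *Igfbp5*. It was also the lowest in this list and in the astrocyte, endothelial, mural and fibroblast lists. It was the highest RFPpos sample in the microglia list and in the oligodendrocyte and neuron lists. It held 391 CPM of the oligodendrocyte list and 211 CPM of the neuron list, while the other RFPpos samples reached at most 323 and 103 CPM. For each 100 counts of the olfactory ensheathing glia list there were from 1.55 to 3.49 *Igf1* counts in RFPneg and from 4.91 to 14.3 in RFPpos samples. The value of 14.3 is that of mouse 1, from 6 *Igf1* and 42 list counts, and the other RFPpos samples reached at most 7.20. On the same scale *Igfbp4* was at 28.6 in the RFPpos sample of mouse 1 and from 5.79 to 6.64 in the others. It was from 2.46 to 10.5 in RFPneg samples. *Igfbp5* was from 4.76 to 12.6 in RFPpos samples, lowest in mouse 1, and from 6.44 to 18.4 in RFPneg samples. For each 100 microglia counts there were from 0.121 to 0.393 *Igf1* counts in RFPneg and 0.0601, 0.274, 0.317, 0.323 and 0.611 in RFPpos samples of mice 1 to 5, which overlap. The part of these cells in the *Igf1* result was not tested.

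**Figure D3:**
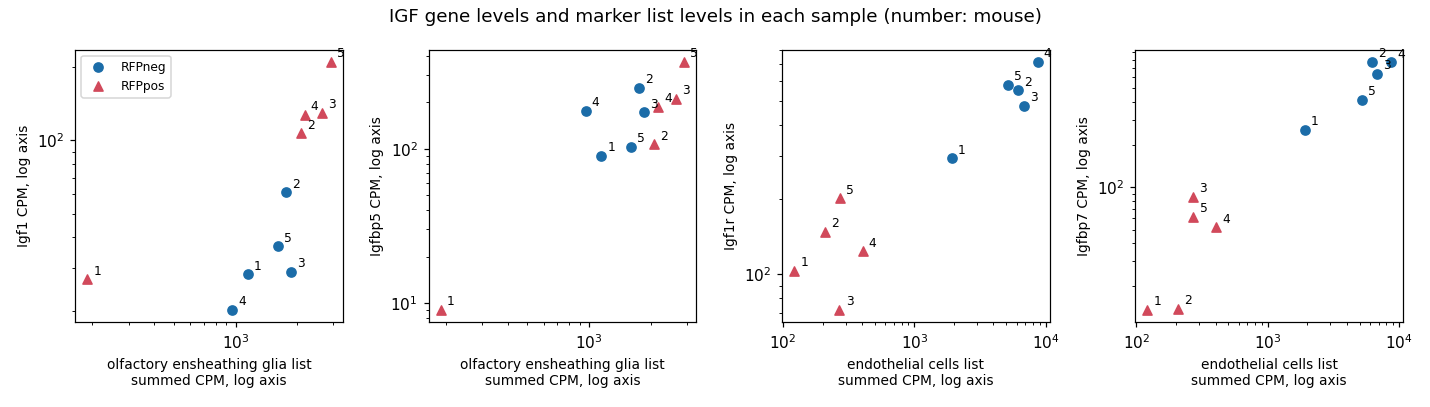
Level of *Igf1*, *Igfbp5*, *Igf1r* and *Igfbp7* (vertical axes, CPM, log scale) against the summed level of a marker list (horizontal axes, CPM, log scale) in each sample, with the mouse number beside the point. RFPpos of mouse 1 lies at 189 CPM of the olfactory ensheathing glia list, and endothelial sums of RFPpos samples lie between 121 and 403 CPM.

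*Igf2* and *Igfbp2* are known from choroid plexus, meninges and vessel walls. Of 10 choroid plexus and ependyma genes 7 were tested and 2 called lower, *Ttr*, the most abundant, and *Enpp2*. *Aqp1* of this list went the other way, with a log2 fold change of 0.83 beside a list median of −1.59, and was not called (edgeR adjusted p = 0.214). The list sum was 3151 CPM ± 2236 in RFPneg and 859 CPM ± 671 in RFPpos samples, with *Ccdc153* and *Tmem212* at 0 in RFPpos samples. For this list the sum was 6594, 4166, 1320.2, 2238 and 1438 CPM in RFPneg samples of mice 1 to 5 and 494, 338, 686, 2024 and 754 CPM in RFPpos samples. Of 10 fibroblast genes 7 were tested and 4 called lower (228 CPM ± 66.3 to 69.4 CPM ± 73.7), with *Dcn* the most abundant and *Lum*, *Col3a1*, *Pdgfra* and *Slc22a6* at 0 in RFPpos samples. Their sum in RFPpos samples of mice 1 to 5 was 0, 44.9, 130.0, 164 and 8.24 CPM, against 186, 229, 231, 334 and 160.2 CPM in RFPneg samples. Of 10 mural genes 8 were called lower (479.9 CPM ± 142 to 70.4 CPM ± 38.4), with *Vtn* the most abundant and *Kcnj8*, *Abcc9*, *Cspg4*, *Tagln* and *Myh11* at 0 in RFPpos samples. Their sum was 564, 576, 250.1, 576 and 434 CPM in RFPneg and 13.5, 55.2, 85.2, 116 and 82.4 CPM in RFPpos samples. The RFPpos sample of mouse 4, the highest RFPpos sample in *Igf2* and *Igfbp2*, was also the highest RFPpos sample in the choroid plexus, fibroblast, mural and endothelial sums. Among RFPneg samples, that of mouse 3 had the highest *Igfbp2* level and the lowest choroid plexus sum. The part of these cells in the *Igf2* and *Igfbp2* results was not tested.

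Profiles were compared for the IGF genes with at least 100 counts, which leaves out *Igf2r* and *Igfbp2*. The distance was the root mean square difference of mean-centred log2 CPM over the 10 samples. It includes the difference between the populations, so that genes of similar fold change are near by construction. The nearest genes were taken from the 4366 genes with at least 100 counts. For *Igf1* they were *Frzb*, *Gm36963* and *B4galt6*, at 0.49, 0.50 and 0.52 beside a median of 1.08 over all genes. For *Igf1r* they were *Slc6a6*, *Ahnak* and the endothelial gene *Pecam1*, at 0.30, 0.30 and 0.34 (median 1.17). *Igfbp7* was nearest to *Klf2*, *Prom1* and the endothelial transporter gene *Abcb1a*, at 0.35, 0.45 and 0.46 (median 1.97). *Igf2* was nearest to *Stmn1*, *Serinc5* and *Nrep*, at 0.31, 0.40 and 0.52 (median 1.37). *Igfbp4* was nearest to *Nek1*, *Nceh1* and *Tgs1*, at 0.33, 0.39 and 0.39 (median 0.88), and none of these passed the threshold. *Igfbp5* was nearest to *Slc4a4*, a bicarbonate cotransporter gene of astrocytes, *Zcchc18* and *Nr2f2*, at 0.36, 0.39 and 0.39 (median 1.26), and *Slc4a4* and *Igfbp5* were both lowest in the RFPpos sample of mouse 1, with 19 and 2 counts.

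Of 91 other genes of the pathway 75 were tested, and 8 were called higher (10.7%) and 4 lower (5.33%), beside 4.27% and 7.49% of all genes. Their median log2 fold change was 0.06. With microglia gene scaling none of the 75 was called higher by edgeR and 43 were called lower, beside 0.0978% and 48.1% of all genes.

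Among the other ligand, receptor and binding protein genes, 5 of 9 had a count, 3 were tested and none was called (median −2.70). The insulin receptor gene *Insr*, the most abundant, had a log2 fold change of −0.46. *Igfbp3* had 15 counts in RFPneg and 1 in RFPpos samples (edgeR adjusted p = 0.174), and *Igfbp6* 11 and 1 (edgeR adjusted p = 0.333). Of the 13 genes of IGFBP proteases and their inhibitors, 7 were tested. *Timp2*, an inhibitor of metalloproteases, rose from 347 CPM ± 49.7 to 713 CPM ± 156 (log2 fold change 1.10, edgeR adjusted p = 2.22e-06), and with microglia gene scaling its log2 fold change was −0.10. *Timp3*, an inhibitor bound to matrix, fell from 1055 CPM ± 379.8 to 522 CPM ± 312 (−1.17, edgeR adjusted p = 3.99e-07), and it kept its call in 17 of 20 other fits.

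Of the 17 receptor adaptor genes 15 were tested, 3 called higher and 2 lower. *Grb2*, which links receptors to RAS, rose (log2 fold change 0.85, edgeR adjusted p = 0.000737; −0.34 with microglia gene scaling), as did the phosphatase gene *Ptpn1* (1.20) and the docking protein gene *Dok1* (1.33). *Dok1* passed the threshold in 10 of 20 other fits and lost it without mouse 1, 3, 4 or 5. Its log2 fold change was from 1.12 to 1.52 in the other fits, apart from 0.14 with microglia gene scaling. *Grb10* and *Grb14*, adaptors that dampen insulin and IGF receptors, fell from 29.6 CPM ± 16.4 to 4.47 CPM ± 6.14 and from 85.7 CPM ± 31.0 to 17.4 CPM ± 16.4. Their log2 fold changes were −2.69 (edgeR adjusted p = 0.0166) and −2.25 (edgeR adjusted p = 2.04e-05). *Grb10* kept its call in 15 of 19 other fits and lost it without mouse 2 or 3. Its log2 fold change was −2.35 without mouse 3 and −3.41 without mouse 4.

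In the PI3K-AKT-TOR-FOXO branch all 26 genes were tested and 23 were not called. The regulatory subunit gene *Pik3r1* rose (log2 fold change 0.91, edgeR adjusted p = 0.000306; −0.28 with microglia gene scaling) and the leukocyte catalytic subunit gene *Pik3cd* rose (1.01, edgeR adjusted p = 0.018; −0.17 with that scaling). The regulatory subunit gene *Pik3r3* fell from 55.1 CPM ± 26.8 to 6.43 CPM ± 10.4 (−3.08, edgeR adjusted p = 3.62e-05), and its log2 fold change was −4.53 without mouse 5. In the RAS-ERK branch 2 of 12 genes were called, the kinase genes *Rps6ka1* (1.16, edgeR adjusted p = 0.00147; −0.01 with microglia gene scaling) and *Map2k1* (0.85, edgeR adjusted p = 0.0235; −0.34 with that scaling), both higher. *Pik3cd* and *Map2k1* each kept their call in 15 of 20 other fits, *Pik3cd* losing it without mouse 2, 3 or 5 and *Map2k1* without mouse 3 or 4. Apart from microglia gene scaling, the log2 fold change was from 0.90 to 1.30 for *Pik3cd* and from 0.73 to 1.00 for *Map2k1*. None of the 11 genes of mannose 6-phosphate tagging and sorting was called by edgeR (median log2 fold change 0.14), and *Nagpa* had an unadjusted p of 0.0203. Of the 3 genes of IGF2 mRNA binding proteins *Igf2bp2* was tested, at 1.39 (edgeR adjusted p = 0.604).

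**Figure D4:**
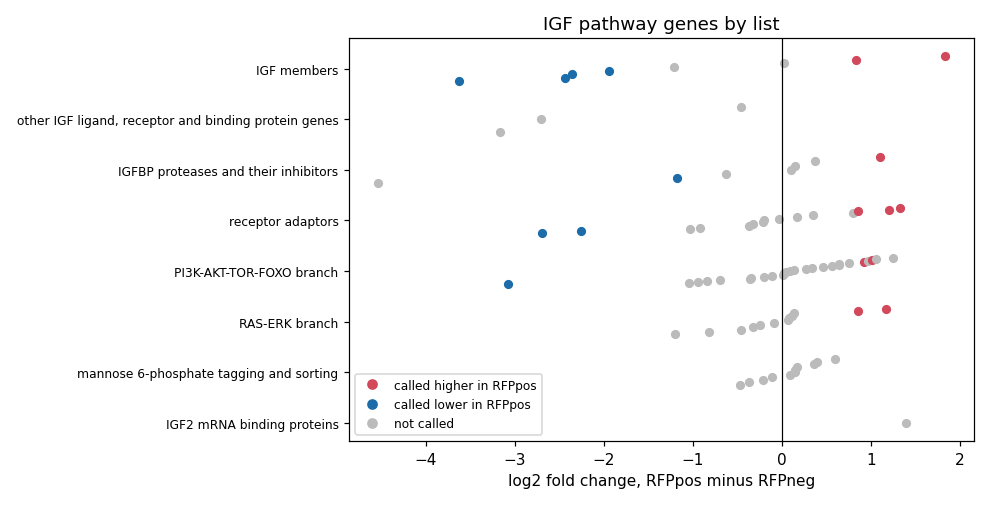
Log2 fold change, RFPpos minus RFPneg (horizontal axis), of each tested gene of the IGF lists (rows). Colours mark calls at an edgeR adjusted p under 0.05, 8 higher and 4 lower among the genes outside the 8 IGF genes.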

How the data were processed

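The deposited values are raw counts of reads per gene in 10 bulk samples, which the authors made from QuantSeq 3′ FWD libraries with the Lexogen pipeline for unique molecular identifiers and did not normalize. The submitters' processing notes name mm10, and the build of the bulk counts is not given in the sources used here. The 2 single-cell samples were not analysed here. Library sizes were sums over genes. The share counted to no gene (32.1% to 37.2% in RFPneg and 38.4% to 48.6% in RFPpos samples) and the ambiguous share (0.361% to 0.436% and 0.295% to 0.363%) were left out. In every mouse the RFPpos sample had more counts on no gene and fewer ambiguous counts as a share of its total, and the part of this in the results was not tested.

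Symbols (47224 of 47643 identifiers), coordinates and overlaps come from GENCODE M21. Genes with at least 10 counts in all were tested with edgeR 4.0.16 in R 4.3.3 (TMM scaling, glmQLFit and glmQLFTest with default settings, mouse as a block, two-sided, Benjamini-Hochberg adjustment over 12270 genes). Prior degrees of freedom came out infinite, so that the p-values use a common trend of the spread and hardly each gene's own. After the results of the 8 genes had been seen, 5 other configurations of glmQLFit were therefore run. A configuration with legacy off took the default's place for a time, and the default, which is the test as planned, was restored with all these results in view. This choice decides the call of *Igfbp4*. Calls also use DESeq2 1.42.0 and limma 3.58.1 as alternatives. A count of 0 was taken to allow 3 counts, which covers counting error only.

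The methods state that both populations are from the same mice. They do not state which samples share a mouse, and samples of the same number were paired. Correlations of deviations from the population means within mice 1 to 5 were 0.21, −0.04, 0.14, −0.003 and 0.02 over 4366 genes. The fit was tested on simulated data.

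The genes and lists were chosen with earlier results of these data known. Named genes are the 8 IGF genes, in each pathway list every gene called (with more than 4, the 3 of smallest p in each direction), the most abundant marker and those at 0, and for IGF genes with at least 100 counts the 3 nearest profiles. Other genes were named after their values were seen. The alternatives changed the scaling (20 microglia genes, library size alone, or median-of-ratios factors), the filter (filterByExpr, none), the test (likelihood ratio, DESeq2, limma-voom) or the call (an added fold threshold), or used no block, each mouse left out in turn or thinned counts.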

Additional observations from a re-analysis of the deposited data

Results flagged for a closer look

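A sample stood apart from the other 4 of its population in 3 of 40 groups of 5 values, and chance gives about 1 in 20 groups. *Igfbp2* in the RFPpos sample of mouse 4 was at 39.9 CPM, while the other RFPpos samples lay between 0 and 8.97 CPM. The choroid plexus and ependyma list summed to 2024 CPM in the same sample, against 338 to 754 CPM in the other RFPpos samples. The list of CNS-associated macrophages summed to 404 CPM in the RFPpos sample of mouse 2, against 204 to 251 CPM in the others.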

How the results depend on the processing

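*Igf1r*, *Igf2*, *Igfbp2* and *Igfbp7* kept their lower call in every alternative that tested them, and *Igf1* its higher call in 19 of 20. filterByExpr left *Igf2*, *Igf2r* and *Igfbp2* untested. With microglia gene scaling the median over all tested genes moved to a log2 fold change of −1.31 in place of −0.15, 5909 genes were called (12 higher, 5897 lower) in place of 1443 (524 higher, 919 lower), 43 pathway genes in place of 12, and the log2 fold changes were 0.64 for *Igf1* (adjusted p = 0.163), −2.30 for *Igf2r* (adjusted p = 0.0451, called), −0.37 for *Igfbp4* and −1.22 for *Igfbp5*. All values are relative to the scaling used. filterByExpr called 916 of 4210 genes (427 higher, 489 lower) and DESeq2 862 (280 higher, 582 lower), with 6 pathway genes.

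The *Igfbp4* call was lost with median-of-ratios scaling (log2 fold change 0.78, adjusted p = 0.0687), library size alone (0.77, adjusted p = 0.083), filterByExpr (0.74, adjusted p = 0.0923), no filter (0.82, adjusted p = 0.0888), DESeq2 (0.79, adjusted p = 0.30) and limma-voom (0.79, adjusted p = 0.0678), and with the added fold threshold, which its 0.83 does not reach. Without the replicate block, which pairs samples by mouse, it was 0.76 (adjusted p = 0.103), and the block changed no other call of the 8 genes. Of the 5 glmQLFit configurations chosen after seeing the data, robust estimation alone kept the call (adjusted p = 0.0483). The other 4, with legacy off, lost it: 0.82 with and without robust estimation (adjusted p = 0.0684 and 0.0776), and 0.82 with the trended dispersion (adjusted p = 0.0756 and 0.0892). These 5 changed no call of the other 7 genes, and called between 1266 and 1452 genes. Leaving out each mouse gave 0.48 to 0.99 for *Igfbp4*, called only without mouse 4, −0.51 to 0.36 for *Igfbp5* and −2.13 to −0.64 for *Igf2r*, neither called, and −3.82 to −2.08 for *Igfbp2*. *Igfbp5* also turned to −0.031 with median-of-ratios scaling, −0.045 with library size alone, −0.049 with filterByExpr and −0.22 with DESeq2. The cause was not tested. *Igf2r* had the fewest counts, 27.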

Other observations

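The other marker lists are given here, of which the astrocyte, oligodendrocyte and neuron lists were named above with the RFPpos sample of mouse 1. All 10 oligodendrocyte genes were called lower, from 2289 CPM ± 1065 in RFPneg to 267 CPM ± 89.7 in RFPpos samples (SD, n = 5), with *Mbp* the most abundant and *Opalin* at 0 in RFPpos samples. All 8 neutrophil genes were called lower, from 3930.1 CPM ± 2049 to 75.0 CPM ± 82.8, with *S100a8* the most abundant and *Ltf* at 0 in RFPpos samples. Of the T, NK and B cell genes 7 of 10 were tested and 3 called lower (206 CPM ± 58.3 to 13.5 CPM ± 7.34), with *Ms4a4b* the most abundant, and *Cd3e*, *Cd3g*, *Cd3d*, *Nkg7*, *Cd79a* and *Trbc2* at 0 in RFPpos samples. Of the neuron genes 9 of 10 were tested and 3 called lower (298 CPM ± 43.4 to 108 CPM ± 63.8), with *Stmn2* the most abundant.

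Of the 10 astrocyte genes 3 were called lower (*Slc1a2*, the most abundant, *Gja1* and *S1pr1*), and the sum was 4577 CPM ± 767 in RFPneg and 3935 CPM ± 1954 in RFPpos samples, where mouse 1 had 1015 CPM. None of 9 tested genes of CNS-associated macrophages was called by edgeR (246 CPM ± 18.3 and 265 CPM ± 80.4), with *Mrc1* the most abundant and *Siglec1* at 0 in RFPpos samples.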
